A study of Mus musculus with 16 samples.

Results

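Gonocytes, also called prospermatogonia, are the male germ cells that lie within the testis cords of the newborn mouse before spermatogonia form. The cells described here were 123 of the 6329 kept cells of the wild-type testis at postnatal day 2, and they were chosen by their own transcripts: a UMI (unique molecular identifier, 1 captured RNA molecule) of at least 4 of the 6 germ cell genes Dazl, Ddx4, Mael, Stk31, Gtsf1 and Sall4. A cell was kept when it had at least 2000 detected genes and at most 10% of its UMIs from mitochondrial genes. The other 6206 kept cells of the same testis preparation were the comparison, and they were mostly somatic cells of the cords and the interstitium. The whole series held 11279 kept cells of wild-type and Ddx5 conditional knockout animals, and the knockout cells were not used here.

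Whole testes were dissociated with TrypLE and captured by droplet-based 3' single-cell sequencing without a sort for germ cells. The animals carried the labels wild type and postnatal day 2, and the strain and the number of animals are not given in the sources used here. In its breeding scheme the study counted both wild-type and Ddx5+/- males as controls, and the labels of these samples give only wild type. The reference of the study held 2 added sequences, GFP, for an Oct4-GFP transgene that marks germ cells, and CRE, for the Mvh-Cre transgene of the knockout. The 8 labelled wild-type samples share 1 barcode suffix in the table, so that the wild type counts as 1 library, cells are not replicates and no test was run. Ranges over cells describe their spread, and intervals (95%, exact) cover counting error only. No label pairs the suffix with the genotype. The wild type was taken as suffix 3, which held 0 CRE UMIs, and 20 CRE UMIs lay under the other suffix.

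In the mouse, gonocytes arise from primordial germ cells, stop dividing before birth and enter the cell cycle again in the first days of life while they move to the basement membrane of the cords. They silence transposons through PIWI-interacting RNAs (piRNAs), which are made in cytoplasmic germ granules, and they have just laid down new DNA methylation. Sertoli cells, their neighbours within the cords, supply GDNF, which signals through the receptor pair GFRA1 and RET, and KIT ligand, which signals through KIT.

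Most kept cells had none of the 6 marker genes, and few cells had 2 to 5 of them. A UMI of 0 markers was seen in 6003 cells, of 1 marker in 193 cells, of 2 in 8 cells, of 3 in 2 cells, of 4 in 10 cells, of 5 in 10 cells and of all 6 in 103 cells. Germ cells were thus 1.94% of kept cells (1.62% to 2.31%). The 6 markers together ran from 150.3 to 4531 CPM (UMIs scaled to a common total of 1e6 per cell or group) with a median of 3034 CPM, against a median of 0 and a highest value of 1120 CPM in the other cells. Just outside the rule, the 2 cells with 3 markers had 151.9 and 598.8 CPM of them, and 13314 and 8158 CPM of 6 Sertoli markers. Just inside it, the 10 cells with 4 markers had a median of 497.4 CPM (150.3 to 3022), and 9 of them carried the markers of a somatic cell type. These values chose the cells and are given as a description.

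The markers of other cell types were used to check the label. In 47 of the 123 germ cells (38.2%, 29.6% to 47.4%) a list of 6 somatic markers summed to 1000 CPM or more. These cells are called mixed below, and that limit was set after the data were seen. The Sertoli list (Amh, Cst9, Cst12, Rhox8, Aard, Defb19) reached the limit in 38 cells, the stromal list in 16, the peritubular myoid list in 3, the Leydig list in 2 and the macrophage list in 1. Scrublet, which scores cells that resemble sums of other cells, called 19 of the 123 as doublets, and all 19 were mixed. The remaining 76 cells, called unmixed, had 2256 to 4531 CPM of the 6 germ markers, and the mixed cells had 150.3 to 3205 CPM, so that the ranges overlapped. Mixed cells had a median of 40557 UMIs and unmixed cells of 32838. The source of the somatic transcripts was not tested, and counts without the mixed cells are given beside the lists and genes they touch most.

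**Figure D1:**
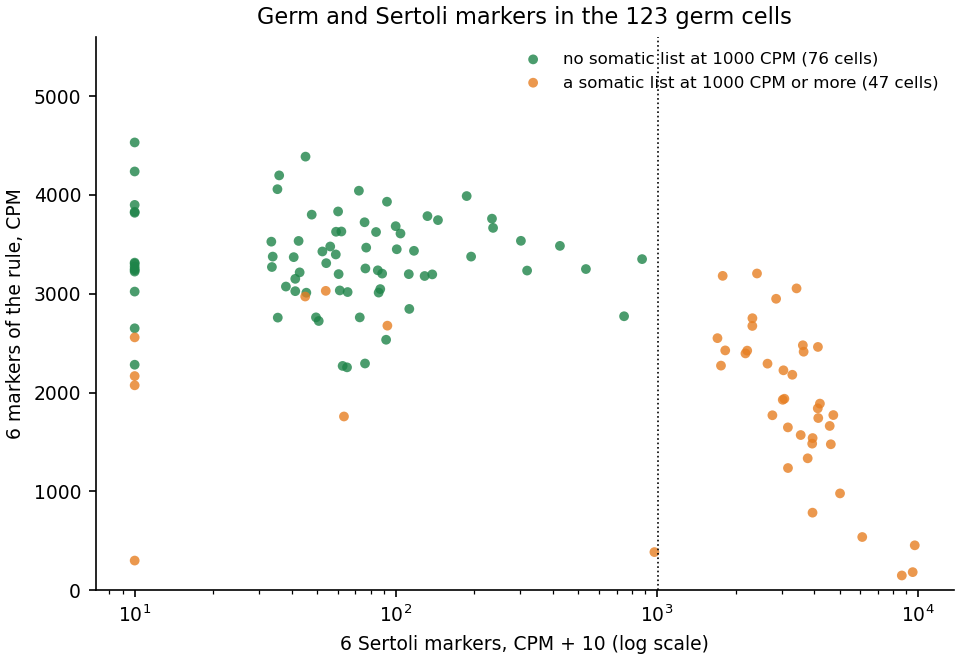
Each point is 1 of the 123 germ cells; the x axis gives the CPM of 6 Sertoli markers plus 10 on a log scale and the y axis the CPM of the 6 markers of the rule, and the dotted line marks 1000 CPM. The 76 unmixed cells (green) lie between 2256 and 4531 CPM of germ markers, and the 47 mixed cells (orange), some of them mixed through another somatic list, reach down to 150.3 CPM.

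Germ cells were larger libraries than their neighbours. Their UMIs ran from 4437 to 95146 with a median of 34735, against 11107 in the other cells, and their detected genes had a median of 7275 against 3679. With every cell thinned to 5000 UMIs, which left out 2 germ cells and 95 others, the medians were 2533 and 2257 genes. Mitochondrial genes gave 5.63% of the summed UMIs of germ cells and 2.50% of those of the other cells, and ribosomal protein genes 16.4% and 20.4%. The limit of 10% mitochondrial UMIs removed 8 further barcodes with at least 4 markers, and the limit of 2000 genes removed 14. The suffixes shared 12 barcode sequences, and 0 of them belonged to a germ cell.

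For the comparison with the other cells, UMIs were summed over each group and scaled to CPM, and the log2 ratio of CPM + 10 was taken for the 18443 genes with at least 20 UMIs in all. A gene is called higher or lower here when this ratio passes 1 or -1. Of all genes compared, 9.77% were higher and 6.78% lower in germ cells, with a median log2 ratio of 0.03. For unmixed germ cells these shares were 12.2% and 9.88%. Against that background, most genes of the germ granule, transcription factor, meiosis and testis-restricted lists were higher. These lists overlap in function with the 6 genes of the rule, and their counts describe the chosen cells rather than test them.

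The germ granule and piRNA list had 29 of its 30 genes compared, of which 27 were higher and 0 lower, with a median log2 ratio of 2.63 (2.87 in unmixed cells). It holds 5 genes of the rule, and 22 of the 24 other genes compared were higher. Dazl, which binds messenger RNAs and promotes their translation in germ cells, had at least 37.6 CPM in every germ cell, a median of 1260 and a highest value of 2336 CPM, and 0.916 CPM over the other cells. A UMI of Dazl was found in 123 of 123 germ cells and in 0.983% of the other cells, and after thinning in 95.04% and 0.393%. Ddx4, the mouse Vasa helicase, had 391.7 CPM over the germ cells against 1.07 CPM, and Mael, a piRNA pathway protein, had 346.2 CPM against 0.343 CPM.

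Several genes of the piRNA pathway were among them. Mov10l1, the helicase that feeds precursor transcripts to the pathway, had 211.2 CPM in germ cells and 10 UMIs in all other cells together, a ratio of 1661 (899 to 3475). Piwil2 (MILI), a PIWI protein that carries piRNAs, had 148 CPM against 1.06 CPM, and its partner Piwil4 (MIWI2), which directs methylation of transposons in the nucleus, had 45.7 CPM against 0.356 CPM. Piwil1, the PIWI protein of meiotic and later cells, had 15.6 CPM and a UMI in 33.3% of germ cells. Asz1 and Gpat2, which act at the mitochondrial surface where piRNA precursors are cut, had 141.5 and 85.6 CPM, against 0.203 and 0.0509 CPM. Fkbp6, a co-chaperone of the pathway, had 403.1 CPM against 6.61 CPM. The other cells with Fkbp6 were mainly Sertoli cells: a UMI of it was found in 17.3% of the 2017 cells with at least 4 Sertoli markers and in 0.472% of the 2757 cells with at least 4 stromal markers.

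Among the RNA-binding regulators, Dnd1, which acts with the NANOS proteins, had a UMI in 81.3% of germ cells (72.7 CPM against 3.40 CPM). Nanos3 had 18.2 CPM. Nanos2, the regulator of the male fate of fetal germ cells, had only 10 UMIs, found in 8 of 123 germ cells (6.504%), and 0 UMIs in the other cells. It was therefore below the minimum of 20 UMIs and left out of the counts.

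**Figure D2:**
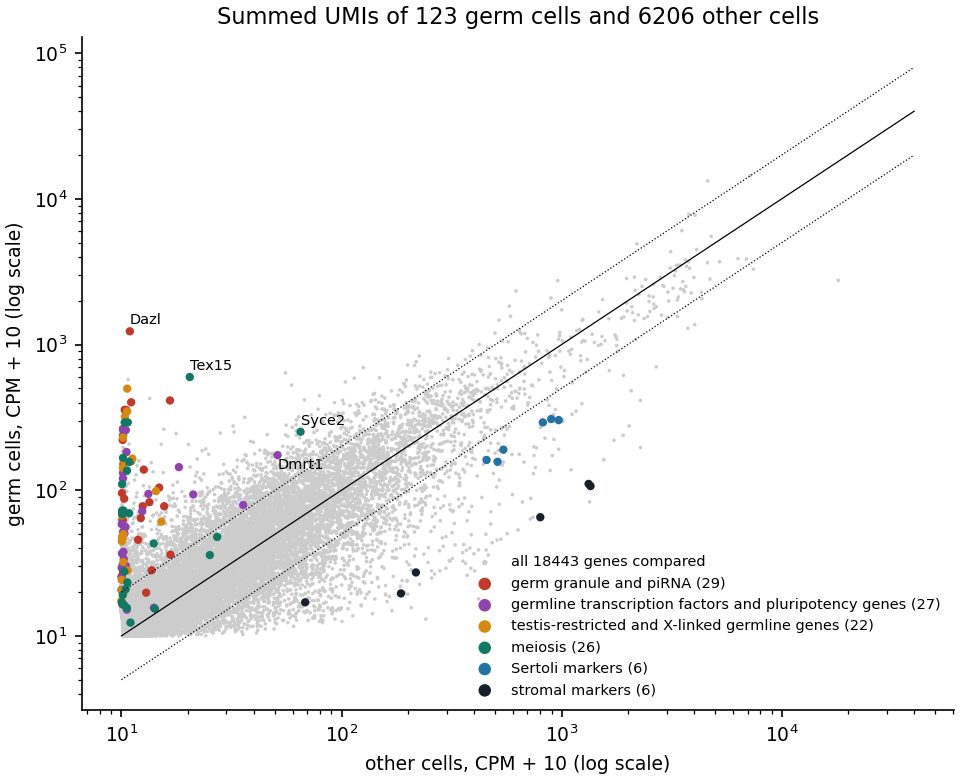
Each point is a gene, with its CPM + 10 over the 6206 other cells (x axis) and over the 123 germ cells (y axis), both on log scales; the line marks equal levels and the dotted lines a factor of 2. Many genes of the germ line lists stand along the left edge, near 0 CPM in other cells, with Dazl highest at 1224 CPM. Some, such as the labelled Dmrt1, lie farther right. The Sertoli and stromal markers lie below the lower dotted line.

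Of the 31 germ line transcription factors and pluripotency genes, 27 were compared, 24 were higher and 0 lower, with a median log2 ratio of 2.14 (23 and 0, with 2.35, in unmixed cells). Factors of spermatogonial stem cells and their precursors were well covered. Pou3f1, a POU factor downstream of GDNF, had 172.8 CPM against 0.547 CPM and a UMI in 89.4% of germ cells. Egr4, an immediate early factor, had 248.5 CPM against 0.471 CPM. Sohlh1, a helix-loop-helix factor of spermatogonial differentiation, had 110.5 CPM against 0.153 CPM and was found in 88.6% of germ cells.

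Id4 and Zbtb16 (PLZF), markers of the stem cell pool, had 134.1 and 61.8 CPM against 8.24 and 2.43 CPM. Taf7l, a germ cell form of a TFIID subunit, had 245.3 CPM against 0.216 CPM, a ratio of 1134 (705 to 1955). Dmrt1 and Foxo1 were higher by less, with 163.9 against 41.2 CPM and 69.2 against 25.7 CPM. The Dmrt1 of the other cells lay in Sertoli cells, where a UMI was found in 71.9% of cells, against 0.725% of stromal marker cells.

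The core pluripotency genes were mostly weak. Pou5f1 (OCT4) had 23.8 CPM, a UMI in 60 of 123 germ cells (48.8%) and 0.242 CPM in the other cells. Sox2 had 19.4 CPM in 30.9% of germ cells, and Lin28a, which blocks the let-7 miRNAs, had 26.8 CPM in 44.7%. Nanog had 3 UMIs over all germ cells and Prdm14 had 0. Dppa4, a chromatin factor of pluripotent cells, had 121.5 CPM and a UMI in 89.4% of germ cells against 0.165 CPM. GFP, which the Oct4-GFP transgene expresses, had a UMI in 92 of 123 germ cells (74.8%) and in 6 of 6206 other cells (0.0967%), or 104.9 against 0.0763 CPM. Among germ cells it ran from 0 to 1204 CPM with a median of 64.1 CPM.

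Receptors for signals from the Sertoli cells were unevenly represented. Of 20 surface receptors and adhesion genes compared, 9 were higher and 3 lower, and their median log2 ratio was 0.40 (9 and 2, with 0.34, in unmixed cells). Ret, the signalling receptor for GDNF, had 139.4 CPM and a UMI in 82.9% of germ cells against 0.127 CPM, and its partner Gfra1 had 105.4 CPM in 72.4% against 0.394 CPM. Gdnf itself was found on the other side, with 41.8 CPM in Sertoli marker cells and 1.18 CPM in stromal marker cells. Germ cells together had 25 Gdnf UMIs (5.83 CPM), of which 1 UMI lay in the 76 unmixed cells.

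Kit, the receptor of differentiating spermatogonia, had 26.1 CPM against 3.18 CPM, a UMI in 48.0% of germ cells and a highest value of 112 CPM. Its ligand gene Kitl, on no list and added after its values were seen, had 260.9 CPM in Sertoli marker cells and 4.01 CPM in unmixed germ cells. The adhesion molecules Epcam (235.2 against 7.71 CPM), Cd9 (316.4 against 82.2 CPM) and Mcam (166.2 against 14.9 CPM) were higher in germ cells. Itgb1 and Il6st, the latter the shared receptor subunit for LIF and other cytokines, were lower, with 181.9 against 380.2 CPM and 18.4 against 92.8 CPM. With the downstream genes counted, 7 of the 9 genes of the GDNF pathway were higher and 0 lower, with a median log2 ratio of 2.54. Without the mixed cells Gdnf passed -1 as well, at -1.50.

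Among 20 genes of DNA methylation and chromatin, 8 were higher and 1 lower (9 and 2 in unmixed cells). Dnmt1 and Uhrf1, which copy methylation to new DNA strands, had 207.3 and 172.1 CPM against 84.5 and 52.1 CPM. The de novo enzyme Dnmt3a did not pass the limit (118.9 against 84.0 CPM), while Dnmt3b (33.6 against 6.18 CPM) and Dnmt3l (19.6 against 0.369 CPM) did. Morc1, needed for silencing of transposons in the male germ line, had 68.8 CPM in germ cells and 4 UMIs in all other cells. Kdm1b, a histone H3 lysine 4 demethylase, had 57.1 against 4.86 CPM. Tet2, which oxidises methylated cytosine, was lower, at 7.46 against 27.2 CPM, but within the limit at 5% mitochondrial UMIs (-0.87), in thinned cells (-0.76) and at 50 CPM (-0.43). Dnmt1 was within it at 50 CPM (0.94).

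Meiotic genes were detected in these premeiotic cells. Of 26 meiosis genes compared, 18 were higher and 0 lower, with a median log2 ratio of 2.32 (18 and 0, with 2.55, in unmixed cells). Tex15, known for its role in silencing transposons and in meiotic repair, had 588.5 CPM against 10.4 CPM, Tex12 and Sycp1 of the synaptonemal complex had 281.9 and 156.9 CPM against 0.343 and 0.165 CPM, and Smc1b, a meiotic cohesin subunit, had 282.1 against 0.687 CPM. The genes of double-strand break formation differed in level. Spo11, which cuts the DNA, had 6.99 CPM and a UMI in 20.3% of germ cells, Mei4 had 6.29 CPM in 21.1%, Mei1 had 11.0 CPM in 27.6%, and Prdm9, which marks the sites, had 2.33 CPM in 8.13%. Rec114, a partner of Mei4, in contrast had 61.6 CPM in 78.9% of germ cells, and Hormad1, of the chromosome axis, had 429 UMIs, in 87.0%. Stra8, the retinoic acid target at the entry into meiosis, had 58.3 CPM and a UMI in 59 of 123 germ cells (48.0%), with values from 0 to 507 CPM. After thinning Stra8 was seen in 15.7% of germ cells and 0.0655% of other cells.

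Of the testis-restricted and X-linked list, 22 of 25 genes were compared, 20 were higher and 0 lower, with a median log2 ratio of 2.27, and in unmixed cells all 22 were higher (background there 12.2%). Slc25a31, an ADP/ATP carrier of germ cell mitochondria, had 338.3 against 0.61 CPM. Rpl10l, a retrocopy of a ribosomal protein gene, had 61.6 CPM against 0.102 CPM. Usp26, Nxf2 and Mageb4, all X-linked, had 149.2, 154.6 and 132.4 CPM, against 0.242, 1.21 and 0.153 CPM. Tex19.1, which restrains transposons, had 309.6 against 0.369 CPM. Its copy Tex19.2 had 88.6 against 4.35 CPM, and Tuba3a and its copy Tuba3b had 488.4 and 473.8 CPM in germ cells and 0.623 and 0.661 CPM in the other cells. Levels of such near-identical copies are uncertain, since the assignment of reads between them was not tested, and Tuba3b was added after its values were seen.

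By size alone, outside the 6 genes of the rule, the 15 genes whose ratio interval lay farthest above 1 were Gm15262, 8030474K03Rik, Mov10l1, Trap1a, Tex101, Taf7l, Trim71, Hormad1, Afp, Gpat2, Topaz1, GFP, Nlrp4c, Rpl39l and Ret. The uncharacterised 8030474K03Rik had 190 UMIs in germ cells and 0 in the other cells, at least 1161-fold higher with 3 UMIs over that group as the floor. Trim71, a stem cell protein and target of let-7, had 187.2 against 0.153 CPM. Afp, alpha-fetoprotein, the main serum protein of the fetus, had a UMI in 117 of 123 germ cells (95.1%) and in 0.403% of other cells, with 327.8 against 0.343 CPM, and was present in all 76 unmixed cells (60.2 to 1099 CPM). Rpl39l, the germ cell copy of a ribosomal protein gene, had 564.7 against 0.725 CPM, and its parent Rpl39 had 1284 against 3739 CPM. Mt2, a metallothionein, had 416.6 against 3.43 CPM. Rpl39 and Mt2 were chosen after their values were seen, and the assignment of reads between Rpl39l and Rpl39 was not tested either.

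One gene each of the macrophage and endothelial lists was found in most unmixed germ cells. Fcer1g, listed as a macrophage marker, had a UMI in 54 of 76 unmixed germ cells at 111 CPM, while of the other 5 macrophage markers Lyz2, C1qa and Csf1r had 0 UMIs there, C1qb 1 and Tyrobp 2. Egfl7, listed as an endothelial marker, had 50.1 CPM in unmixed germ cells, in 57 of 76 of them, and 10.2 CPM in the other cells. The rest of these lists was not higher: of the 6 endothelial markers 1 was higher and 1 lower, Cdh5 with 7.46 against 68.3 CPM, and Emcn had 2 UMIs over all germ cells.

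The 10 genes lower in germ cells by the same rule were Tcf21, Nr2f2, Col1a2, Inhba, Ednra, Cald1, Islr, Adamts5, Hoxd9 and Olfml3, with log2 ratios from -4.01 to -3.22. They include the collagen gene Col1a2, and Tcf21 and Nr2f2, which encode transcription factors of interstitial cells. Tcf21 had 4.90 CPM in germ cells and 159.5 CPM in other cells, and Nr2f2 17.95 and 392.8 CPM. In the 76 unmixed cells Tcf21 had 2 UMIs and Nr2f2 had 6.41 CPM. All 6 stromal and all 6 Sertoli markers were lower, with median log2 ratios of -3.42 and -1.53, and in unmixed cells of -4.43 and -4.73.

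Ddx5, the RNA helicase that the study deleted, was detected in 123 of 123 germ cells, at 1154 CPM against 769.4 CPM in the other cells. Its log2 ratio of 0.58 did not pass 1. Ddx5 is on no list and was added because the study concerns it.

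The start regions of the genes with the largest ratios, and of some germ line lists, were searched for a short sequence. The E-box CACGTG, read by helix-loop-helix factors and identical on both strands, was searched in the 250 bases before each RefSeq start (GRCm38.p6). It was found before 6.02% of the 32851 starts, and before at least 1 start of 9.47% of the 12372 compared genes that had an entry. It was found in 18 of 58 genes (31.0%) with a log2 ratio of 3 or more, in 11.2% of those from 2 to 3, in 12.4% of those from 1 to 2, in 9.23% of those between -1 and 1 and in 6.65% of those at most -1. These ratios come from the contrast that chose the cells, genes of the rule are counted in the group at 3 or more, and the shares are a description. The median number of CpG in the window was 16 at a log2 ratio of 3 or more, 17 from 2 to 3, 19 from 1 to 2, 16 between -1 and 1 and 13 at most -1.

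Germ granule and piRNA genes held it in 10 of 25 entries, with Ddx4, Mael and Stk31 of the rule among the 10, and meiosis genes in 7 of 23. In the other germ line lists it was found in 3 of 19 transcription factors, 3 of 22 testis-restricted genes, 3 of 19 methylation genes, 1 of 13 receptors and 0 of 6 genes of the GDNF pathway. The S phase and G2/M phase lists held it in 2 of 31 and 3 of 47, and the list of G1 cyclins, CDKs and inhibitors in 3 of 16. Of the rule, Ddx4, Mael and Stk31 held the hexamer, and the windows of Dazl and Gtsf1 did not. The table had no entry for Sall4. A match says only that these letters are there. The stretches of 80 bases around the hexamer are shown for 6 genes that the sections above turn on, 5' to 3' on the strand of the gene, with the hexamer in capitals; they lie before the RefSeq start and outside GENCODE vM21 exons.
Mael, chr1:166238915-166238994, minus strand: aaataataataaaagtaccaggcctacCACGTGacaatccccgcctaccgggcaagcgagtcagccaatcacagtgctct
Stk31, chr6:49395447-49395526, plus strand: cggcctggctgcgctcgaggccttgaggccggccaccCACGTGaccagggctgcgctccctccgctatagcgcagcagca
Mov10l1, chr15:88982744-88982823, plus strand: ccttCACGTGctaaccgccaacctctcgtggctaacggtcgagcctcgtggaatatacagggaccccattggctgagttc
Hormad1, chr3:95559597-95559676, plus strand: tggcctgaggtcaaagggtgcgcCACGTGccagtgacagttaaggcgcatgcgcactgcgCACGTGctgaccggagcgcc
Taf7l, chrX:134476497-134476576, minus strand: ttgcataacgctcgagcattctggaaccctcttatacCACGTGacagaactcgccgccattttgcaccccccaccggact
Slc25a31, chr3:40708741-40708820, plus strand: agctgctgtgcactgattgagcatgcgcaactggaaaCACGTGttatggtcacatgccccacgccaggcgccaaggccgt
The hexamer nearest the start began 55 bases before it in Stk31, 49 in Taf7l and 20 in Hormad1, which held 2 copies, and 246 bases before it in Mov10l1. Chromosome X held 25 of 214 genes (11.7%) with a log2 ratio from 2 to 3 and 8 of 81 (9.88%) with a ratio of 3 or more, and 61 of 1465 (4.16%) with a ratio from 1 to 2, beside 3.92% of all genes compared that had a position and 7.76% of the genes at -1 or less.

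**Figure D3:**
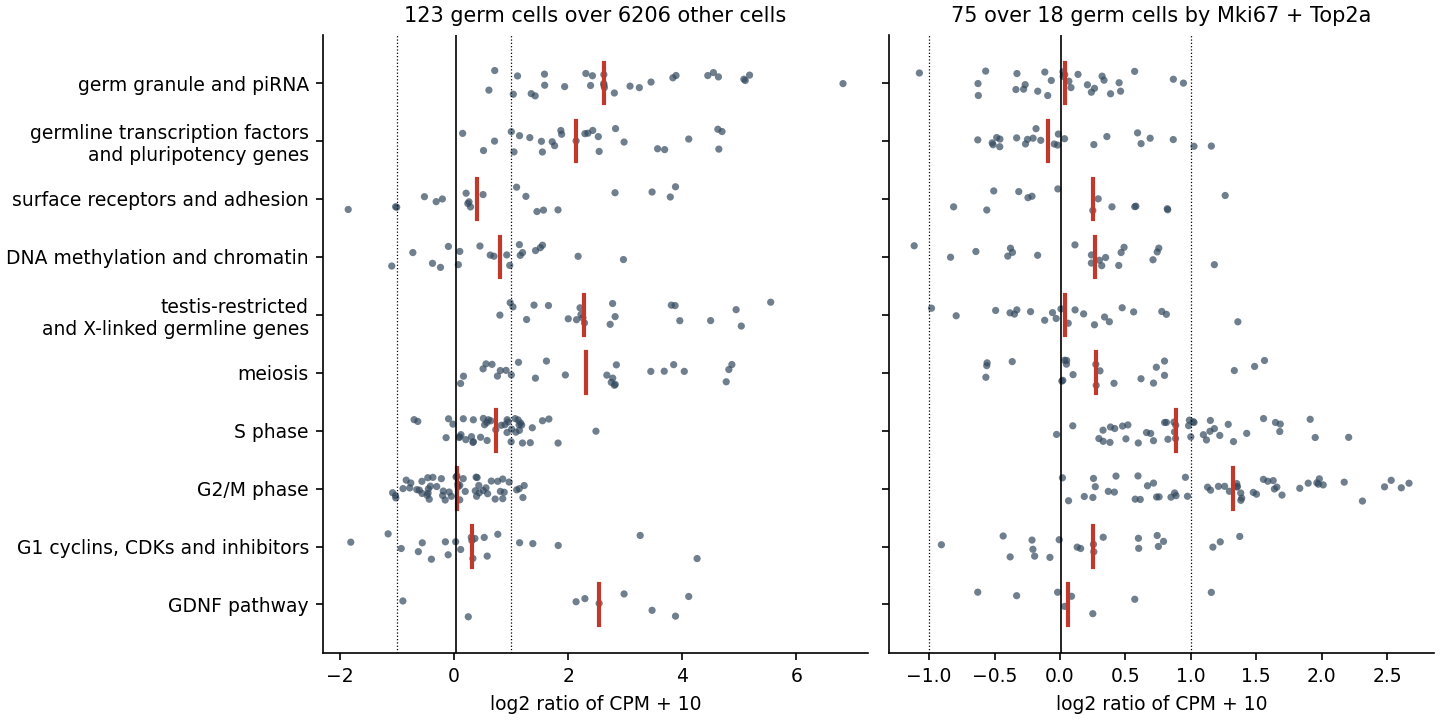
Each point is a gene and its log2 ratio of CPM + 10, by list, for germ cells over other cells (left) and for germ cells with at least 4 over those with 0 Mki67 + Top2a UMIs (right, these 2 genes left out); red bars are list medians, the solid line the median of all genes compared and the dotted lines -1 and 1. On the left the germ granule list has a median of 2.63 and the G2/M list of 0.06; on the right the G2/M list has a median of 1.32 and the germ granule list of 0.04.

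Cell cycle genes were expressed in most germ cells, and S phase genes more so against the other cells than G2/M genes. Of 43 S phase genes compared, 16 were higher and 0 lower in germ cells, with a median log2 ratio of 0.73 (19 and 0, with 0.78, in unmixed cells). Hells, a helicase needed for DNA methylation, led them with 435.5 against 69.4 CPM, followed by Ung (219 against 54.6 CPM), a uracil glycosylase, and Cdca7 (117 against 30.0 CPM), the partner of HELLS. Of 54 G2/M genes, 4 were higher and 3 lower, with a median of 0.06; Cdk1, the kinase that drives mitosis, had 86.3 against 185.3 CPM. Cdk1 came within the limit at 5% mitochondrial UMIs (-0.90), by the mean of per-cell CPM (-0.72), at a pseudocount of 50 CPM (-0.79) and in thinned cells (-0.67). In unmixed germ cells 6 G2/M genes were higher and 7 lower, with a median of -0.03. In single germ cells the 43 S phase genes together ran from 1096 to 12089 CPM (median 4993), while the other cells had a median of 1325 CPM and 41.6% of them lay below the lowest germ cell.

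For 52 G2/M genes, without Mki67 and Top2a, the germ cells ran from 1449 to 15358 CPM with a median of 6378, against a median of 2027 CPM in the other cells. Of the other cells 10.3% (642 cells) lay above the highest germ cell and 27.1% below the lowest one, so that germ cells spanned a narrower range than the other cells, which reached 39135 CPM. Germ cells were 123 and other cells 6206, and the extremes of a larger group reach farther.

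The cyclins and inhibitors of G1 differed from those of the neighbours gene by gene. Ccnd1 (cyclin D1) had 123.8 against 3.93 CPM, while Ccnd2 (679.9 against 525.1 CPM) and Ccnd3 (167.6 against 223.9 CPM) did not pass the limit. The inhibitor gene Cdkn2a (p16 and p19ARF) had 197.5 CPM and a UMI in 93.5% of germ cells, against 0.814 CPM and 0.967% of other cells. Cdkn1a (p21) had 42.7 against 4.85 CPM, and Rb1 had 45.0 against 11.1 CPM. Cdkn2c (p18) and Rbl2 (p130), in contrast, were lower, with 9.09 against 57.0 CPM and 5.36 against 24.2 CPM, where Rbl2 came within the limit in thinned cells (-0.93) and both at 50 CPM. In total 5 of the 22 genes of this list were higher and 2 lower (5 and 3 in unmixed cells).

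The germ cells were then divided by the summed UMIs of Mki67 and Top2a, genes of proliferating cells. At least 4 UMIs were found in 75 of the 123 cells (61.0%, 51.8% to 69.6%), 1 to 3 UMIs in 30 and 0 UMIs in 18 (14.6%, 8.91% to 22.1%). For short, the 75 are called cycling and the 18 non-cycling. Among the 76 unmixed cells, 49 were cycling, 16 between and 11 non-cycling. The division was made at full depth, and the groups differed in it: cycling cells had a median of 39615 UMIs and non-cycling cells of 17233. At 5000 UMIs in every cell, at least 2 Mki67 + Top2a UMIs would be drawn in 43.3% of germ cells on average over all draws, in 34.2% of Sertoli marker cells and in 18.5% of stromal marker cells. At full depth, at least 4 UMIs were found in 34.6% of Sertoli and 17.6% of stromal marker cells. The mitochondrial limit also moved the share: with at most 5% mitochondrial UMIs, 50 germ cells remained, of which 34.0% were cycling. Cycling cells had a median mitochondrial share of 6.17% and non-cycling cells of 2.98%, and the part of depth and of this share in the division was not tested.

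The groups had 75 and 18 cells, and 11081 genes had at least 20 UMIs over them. The cycling cells were higher in 2.89% of these genes and lower in 2.26%. In unmixed cells, 49 against 11, the shares were 4.79% and 2.82% of 9074 genes. Of the 52 G2/M genes other than Mki67 and Top2a, which made the division, 31 were higher and 0 lower with a median log2 ratio of 1.32 (30 of 50 and 1.15 in unmixed cells), and the S phase genes 18 of 43 higher and 0 lower with a median of 0.88 (30 of 42 and 1.15 in unmixed cells). In single cells without the 2 genes of the rule, G2/M genes ran from 3235 to 15358 CPM (median 7915) in cycling and from 1812 to 8966 CPM (median 3475) in non-cycling cells, so that the groups overlapped. S phase genes ran from 1616 to 12089 CPM (median 6323) and from 1546 to 6479 CPM (median 2635).

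**Figure D4:**
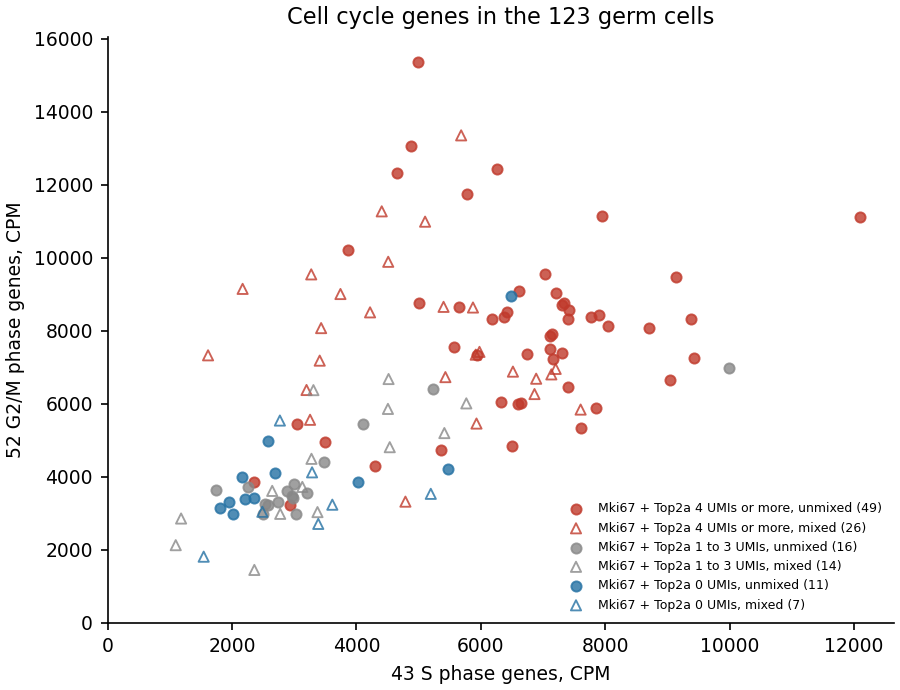
Each point is 1 of the 123 germ cells with the summed CPM of 43 S phase genes (x axis) and of 52 G2/M genes (y axis); colours give the Mki67 + Top2a UMIs and open triangles are mixed cells. Cells with 0 UMIs (blue) lie mostly at the lower left, around medians of 2635 and 3475 CPM, and cells with 4 or more (red) spread to 12089 and 15358 CPM.

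Outside the 2 genes of the division, the genes highest in cycling cells by the fixed rule included Nusap1, Cep55, Esco2, Ccna2, Tpx2, Birc5, Ube2c, Cenpf and Hmmr, genes of chromosome segregation, cell division or their timing. Esco2, which acetylates cohesin in S phase, was present in 75 of 75 cycling cells and 7 of 18 non-cycling cells, with 176.4 against 20.5 CPM. Ccna2 (cyclin A2) had a UMI in 71 of 75 and 3 of 18 cells. In the unmixed cells, Esco2 was found in 49 of 49 and 4 of 11. Some non-cycling cells still carried such transcripts: the highest of them reached 270 CPM of Ccna2. Counts of cells with a UMI, here and below, are at full depth, where medians were 39615 UMIs in cycling and 17233 in non-cycling cells.

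The medians of most germ line lists differed little by this division. Of 29 germ granule and piRNA genes compared, 0 were higher and 1 lower in cycling cells, with a median log2 ratio of 0.04, and the GDNF pathway had a median of 0.06. Mov10l1, of the germ granule list, passed 1 at 5% mitochondrial UMIs (2.25), by the mean of per-cell CPM (1.24) and in thinned cells (1.15). It also did so with at least 1000 genes (1.04) and with at least 8 Mki67 + Top2a UMIs (1.02). Dazl had 1243 CPM in cycling and 1129 CPM in non-cycling cells. In unmixed cells, the 30 germ granule genes together ran from 4067 to 6213 CPM (median 5273) in the 49 cycling and from 4197 to 6469 CPM (median 4911) in the 11 non-cycling cells. Kit had 25.97 against 26.4 CPM. Gfra1 had 113.5 against 93.8 CPM, but a UMI in 65 of 75 cycling and 7 of 18 non-cycling cells (44 of 49 and 6 of 11 unmixed cells), and at a limit of 5% mitochondrial UMIs, which left 17 and 11 cells, its log2 ratio was 1.60 in place of 0.25.

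A few germ line genes passed the limit between the groups: 3 of 22 meiosis genes, 2 of 24 transcription factors, 1 of 22 testis-restricted genes, 1 of 15 receptors and 1 of 20 methylation genes were higher, and 1 methylation gene and 1 of 29 germ granule genes were lower. Of all genes compared 2.89% were higher and 2.26% lower, so that nothing is read from the counts of 1. Stra8 had 67.3 CPM in cycling cells (UMIs in 45 of 75) and 17.6 CPM in non-cycling cells (2 of 18), a ratio of 3.83 (1.73 to 10.6). In unmixed cells Stra8 was found in 34 of 49 and 1 of 11 cells, with 95.2 against 4.44 CPM, and the lowest value was 0 CPM in both groups. Smc1b had 332.5 against 126.0 CPM, with UMIs in 74 of 75 and 11 of 18 cells, and Tex11, an X-linked meiotic gene, had 71.5 against 17.6 CPM. Their highest non-cycling cells, at 603 CPM of Smc1b and 185 CPM of Tex11, lay within the range of the cycling cells. The Tex11 value was 1 UMI in a mixed cell of 5414 UMIs. Tex13b, an X-linked testis gene, had 68.3 against 20.5 CPM (81.2 against 26.7 CPM in unmixed cells). Uhrf1, also an S phase gene, had a log2 ratio of 1.18 (1.08 in unmixed cells). The transcription factor Lhx1 (1.16), the let-7 inhibitor Lin28b (1.02) and the integrin Itga6 (1.26) passed the limit in all germ cells, but not in unmixed ones, at 0.81, 0.91 and 0.89. Sohlh2, of the transcription factor list, and Tuba3a passed it only in unmixed cells, at 1.48 and 1.08. Sohlh2 had 98 against 3 UMIs there, in 41 of 49 and 2 of 11 cells. Tdrd6, the lower germ granule gene, rested on 14 and 7 UMIs. Without the highest cell of the higher group Tdrd6 had -0.61 in place of -1.07 and Lin28b 0.98. With the division made on thinned counts Stra8 had a log2 ratio of 0.80, Smc1b of 0.98, Tex11 of 0.63, Tex13b of 0.60 and Uhrf1 of 0.85, so that none of these 5 genes passed the limit there.

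In the other direction, Kdm1b had 42.0 CPM in cycling and 102.6 CPM in non-cycling cells, a ratio of 0.409 (0.280 to 0.613), and 47.3 against 119.9 CPM in unmixed cells. GFP had a lower level in cycling cells as well, with 83.1 against 243.3 CPM, and a UMI in 58 of 75 and 12 of 18 cells. Its highest values were 726 and 1204 CPM, and 6 of 18 non-cycling cells had none. A single non-cycling cell held 34 of the 83 GFP UMIs of its group. Without that cell GFP had 156.6 CPM in non-cycling cells, a log2 ratio of -0.84 in place of -1.44, and in unmixed cells 137.1 CPM against 109.9 CPM, a ratio of -0.30. Kdm1b without its highest non-cycling cell likewise came to -0.80 in place of -1.11, so that for both genes 1 cell decided whether the limit was passed. Cdkn1a had 39.1 against 82.1 CPM, a log2 ratio of -0.91, and -1.21 in unmixed cells (-0.98 there without the highest non-cycling cell). Lmna, which encodes lamins A and C, had 144.6 against 416.2 CPM (153.9 against 466.4 CPM in unmixed cells), and the homeobox gene Nkx2-3 had 16.4 against 82.1 CPM (16.3 against 115.5 CPM). These 2 genes stayed past the limit without their highest cell, at -1.16 and -1.36. With the division on thinned counts, in contrast, Lmna (-0.72), Nkx2-3 (-0.70), Kdm1b (-0.88) and GFP (-0.91) were all within it, and Nkx2-3 also at a pseudocount of 50 CPM (-0.99). Lmna was within it with all cells thinned as well (-0.57), and Lmna (-0.97) and GFP (-0.98) with at most 1 UMI as non-cycling. Dnd1 had 68.6 against 111.4 CPM, a log2 ratio of -0.63.

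**Figure D5:**
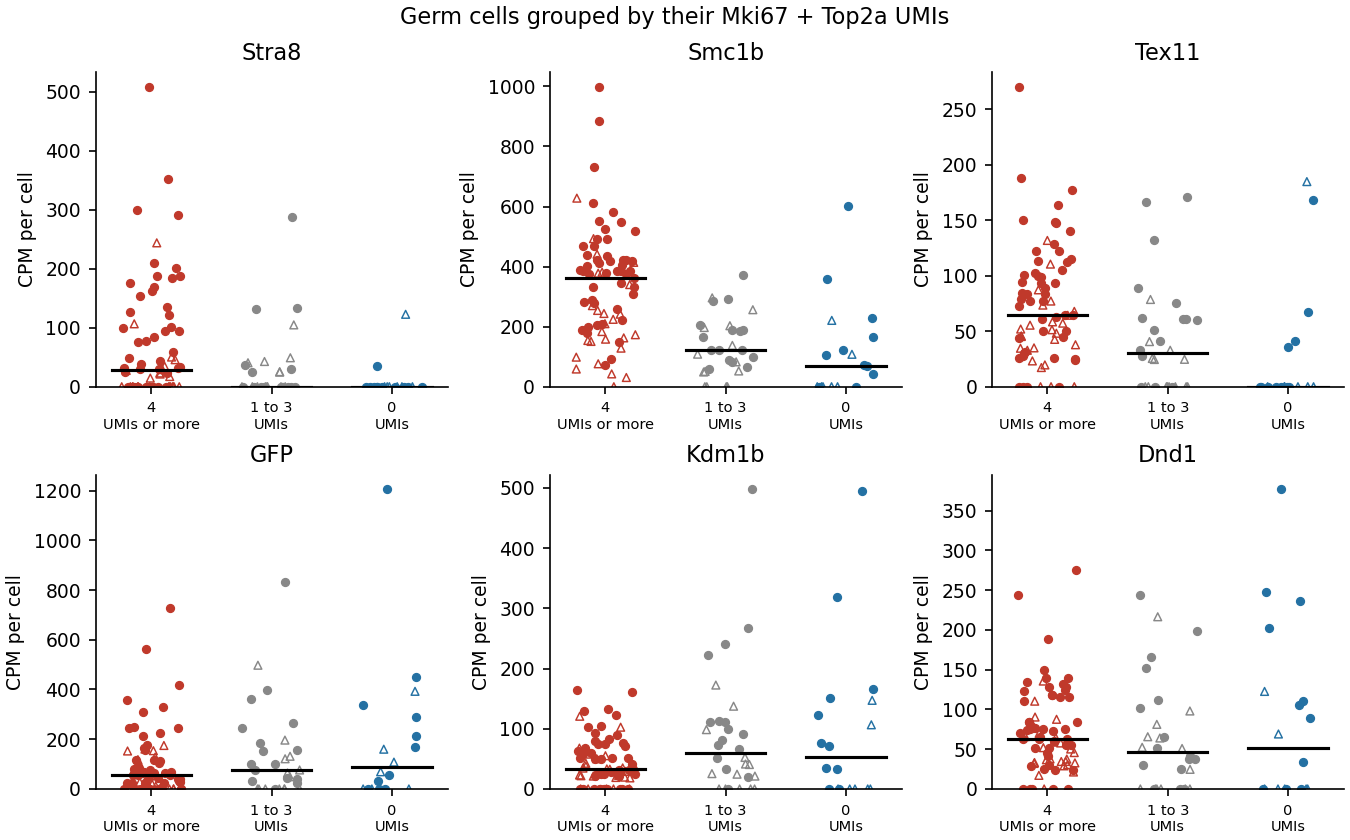
CPM per cell of 6 genes in the germ cells with 4 or more, 1 to 3 and 0 Mki67 + Top2a UMIs; filled points are unmixed and open triangles mixed cells, and bars are group medians. Most cells with 0 UMIs have no Stra8, while the highest GFP value, 1204 CPM, and high Kdm1b values occur among them.

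The other genes lowest in cycling cells had smaller ratios once the mixed cells were left out. They were Tmsb4x, Meg3, Col1a1, Col3a1, Dcn, Bgn, Ltbp4, Mfap2 and Sirpa, beside Nkx2-3. Tmsb4x had 148.5 against 1489 CPM in all germ cells, and 32.1 against 35.5 CPM in unmixed ones. Meg3 had 118.6 against 817.8 CPM, and 54.1 against 84.4 CPM without mixed cells, and the log2 ratio of Dcn was -2.21 in all germ cells and 0.95 in unmixed ones, where 3 UMIs lay in the non-cycling cells. Ltbp4 was still past the limit in unmixed cells, at -1.26 (-0.98 in all germ cells with the division on thinned counts), while Mfap2 (-0.82), Sirpa (-0.70), Col1a1 (-0.64), Col3a1 (-0.48) and Bgn (-0.21) were within it. Of the 6 macrophage markers, 5 were compared and all 5 were lower in cycling cells, and the C1qa UMIs, 110 in all, came from 1 non-cycling cell. Fcer1g had a log2 ratio of -0.06 in unmixed cells. Mixed cells were 7 of the 18 non-cycling and 26 of the 75 cycling cells.

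Apart from the division, the genes with the highest variance over mean among germ cells thinned to 5000 UMIs were, in order, Apoe, Tmsb4x, Meg3, Malat1, mt-Nd1, mt-Cytb, Dcn, mt-Nd2, Ftl1 and mt-Nd4, out of 1923 genes with a mean of at least 0.5 UMIs. Apoe had a median of 0 and a highest value of 334 UMIs, in the cell that also held the C1qa UMIs. Among unmixed cells mt-Nd1 and mt-Cytb led instead, at 0 to 141 and 0 to 144 UMIs a cell. Mitochondrial shares of germ cells ran from 0% to 9.93%, and 8 cells (6 of them unmixed) had under 1%. These 8 had a median of 12202 UMIs, each had Dazl, Afp and Rpl39l, and 0 Kit UMIs were found in them, beside 26.8 CPM of Kit in the other 115. Malat1, a nuclear RNA, was found in 4 of the 8 and in all 115 other germ cells. Its summed level was higher in the 8, at 4565 against 2698 CPM.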

How the data were processed

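Single cells of whole testes at postnatal day 2 were sequenced by the authors with the 10x 3' chemistry. The deposited table holds counts of UMIs per gene and barcode, 30451 genes by 12186 barcodes, with no normalization. Per the submitters' processing notes, Cell Ranger 3.1.0, Seurat 3.1.5 and the build GRCm38 were used by the authors, with the sequences of GFP and CRE appended to that genome. Barcodes end in suffix 3 (6763) or 4 (5423), and suffix 3 was taken as wild type by the rule that defines these cells, with the CRE UMIs beside it, since no label gives the link. Total UMIs of suffix 3 were 84263163.

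A barcode was kept if 2000 or more genes were detected and mitochondrial genes gave no more than 10% of its UMIs. Doublets were called with Scrublet (scanpy 1.11.5; 314 kept cells, 4.96%) and not removed. UMIs were summed per group, scaled to CPM, and compared as the log2 ratio of CPM + 10 for genes with at least 20 UMIs, which understates the change of low genes. Intervals were exact (Poisson for sums, Clopper-Pearson for shares, conditional binomial for ratios; 95%). A gene at 0 in a group was given a floor of 3 UMIs over that group. For shares at equal depth, cells were thinned to 5000 UMIs.

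Named genes were those on the lists, plus the 15 highest and 10 lowest in germ cells, and the 10 each way in cycling cells, ranked by the bound of the ratio's interval nearest to 1 (minimum 50 UMIs, found in 50% or more of the higher group's cells), and the 10 with the highest variance over mean. The members, lists and this rule were chosen with earlier results of these data known. 1 gene that the rule names is not reported here. With 1 library, no test was run. Alternatives were the marker minimum, mitochondrial limit, doublets, pseudocount, UMI minimum, thinning, the limits of the division and, added after seeing the data, leaving out mixed cells or a gene's highest cell. The computation was tested on simulated data. Python 3.11.15, NumPy 2.4.6, SciPy 1.17.1, pandas 2.3.3 and Matplotlib 3.10.9 were used.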

Additional observations from a re-analysis of the deposited data

How the results depend on the processing

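Every value rests on 1 library of unknown animal number, and cells are not replicates, so that no interval covers animals. No paired analysis was possible because the result comes from no test and the barcodes carry no library number. Germ cells were 0.822% of kept cells at a limit of 5% mitochondrial UMIs and 1.21% without mixed cells. The cycling share was 34.0% at that limit, 70.7% and 46.3% with at least 2 and at least 8 UMIs of Mki67 and Top2a, and the non-cycling share was 29.3% with at most 1 UMI. With the division made on thinned counts, which changed both the depth and the limit of cycling cells from 4 to 2 UMIs, each share was 39.8% of the 123 cells, the 2 cells too shallow to thin included (49 of 121, or 40.5%, without them; the mean over all draws for cycling cells was 43.3%). With a pseudocount of 1 or 50 CPM, 4111 or 423 genes were higher and 2744 or 389 lower in germ cells, against 1801 and 1251, and 1010 or 37 were higher and 762 or 37 lower in cycling cells, against 320 and 250. These counts depend on the pseudocount by construction. In cycling cells, 846 genes were higher at 5% mitochondrial UMIs, 196 higher and 71 lower with at least 100 UMIs a gene, 148 and 133 with at most 1 UMI as non-cycling, 76 and 81 with the division on thinned counts, and 155 lower with all cells thinned. Among list medians, transcription factors had 0.87 and testis-restricted genes 0.85 at 50 CPM, and receptors 1.17 at 1 CPM. In cycling cells the S phase median was 1.09 at 1 CPM and 1.15 without mixed cells, and the G2/M median, without Mki67 and Top2a, 0.66 at 50 CPM and 0.92 with the division on thinned counts. Without mixed cells the sign turned for Dcn (0.95), Col1a2 (0.32) and Rhox8 (-0.31) in cycling cells and for C1qa (-1.80) and C1qb (-1.63) in germ cells. Apoe in germ cells turned to 1.51 at 5% mitochondrial UMIs and 1.07 with thinned cells, and Sall4 in cycling cells to 1.18 at 5%. At 50 CPM, the named genes that came within the limits in germ cells were 8030474K03Rik, Cdk1, Cdkn1a, Cdkn2c, Dnmt1, Dnmt3b, Dnmt3l, Egfl7, Foxo1, Itgb1, Kdm1b, Kit, Kitl, Lhx1, Lin28a, Lin28b, Mei1, Nanos3, Nkx2-3, Piwil1, Piwil4, Pou5f1, Rb1, Rbl2, Sox2 and Tet2, and in cycling cells Cald1, Cdk1, Cep55, Fcer1g, Hmmr, Inhba, Itga6, Kdm1b, Kitl, Lhx1, Lin28b, Nkx2-3, Nr2f2, Olfml3, Rhox8, Sirpa, Stra8, Tdrd6, Tex11, Tex13b and Uhrf1. With the division on thinned counts they were Cep55, Dcn, Fcer1g, GFP, Hells, Inhba, Itga6, Kdm1b, Kitl, Lhx1, Lin28b, Lmna, Ltbp4, Mfap2, Nkx2-3, Nr2f2, Olfml3, Rhox8, Sirpa, Smc1b, Stra8, Tdrd6, Tex11, Tex13b, Tuba3b and Uhrf1. Mei1, which lay at the limit in germ cells, also came within it at 5% mitochondrial UMIs (0.76) and by the mean of per-cell CPM (0.92). Also, without 1 cell, the highest of its group, GFP, Kdm1b, Lin28b and Tdrd6 of 15 genes tried came within the limits. Otherwise the cause was not tested. Under the alternatives, 353 of 360 list medians and 4865 of 5114 values of named genes stayed on their side of the limits of -1 and 1, 157 of the latter came within those limits, and 84 went past them. A change of the UMI minimum could not move the ratio of a named gene. Genes that never passed a limit also count as unmoved, so that these counts are no measure of stability.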
